A study of Mus musculus with 6 samples.

Results

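The levels of 10 genes of bone morphogenetic protein (BMP) and activin signalling were followed in cultured stromal fibroblasts of the mammary gland of mice: the ligand genes Bmp2, Bmp4, Bmp7 and Inhba, the antagonist genes Grem1 and Fst, the receptor genes Bmpr1a and Bmpr2, and the target genes Id1 and Id3. They were chosen by gene symbol from 23337 genes in the count tables, and all 10 members were found and passed the low-count filter, as did 13442 genes in all. RNA was sequenced from 3 cultures homozygous for the cpdm allele of Sharpin (Sharpin-cpdm) and 3 wild-type cultures, all from C57BL/KaLawRij mice at an age of 7 weeks. The cpdm allele is a spontaneous mutation that leaves mice deficient in SHARPIN, which takes part in linear ubiquitination by the complex LUBAC and restrains integrins. It is a germline allele, so every cell of the gland carried it. Each culture pooled the glands of 3 mice; after collagenase digestion the stromal fraction was spun down and kept at passage 0 in serum until confluent, so that the levels are those of serum-fed cells in dishes. Values in the 3 libraries of a genotype are listed in the order of their replicate numbers, 1 to 3.

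BMPs and activins are secreted dimers of the TGF-beta family. BMPs bind type I receptors such as BMPR1A together with type II receptors such as BMPR2. This receptor complex leads to phosphorylation of SMAD1, SMAD5 and SMAD9, and the ID genes are among the direct targets of these SMADs. Activins act through SMAD2 and SMAD3. Gremlin binds BMPs and follistatin binds activins outside the cell, and both keep their ligands from the receptors. In the mammary gland, ligands of this family made by the stroma are known to act on the growth of the ducts, the setting that the series names.

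The libraries held between 13570649 and 15656196 gene counts. Levels are given as CPM, a library's counts scaled to a common total of gene counts. Sharpin, the mutated gene, read 10.5, 9.13 and 9.50 CPM in the Sharpin-cpdm cultures, against 24.5, 25.2 and 31.2 CPM in the wild-type ones, and no library went against its label (edgeR adjusted p 0.272 without and 0.00598 with the replicate number as a block). Fibroblast markers summed to between 66258 and 82760 CPM in the Sharpin-cpdm cultures and between 69316 and 92855 CPM in wild-type libraries, and 4 of the 18 fell in the test described below. Markers of other cells were also present: the 19 endothelial markers summed to between 632 and 921 CPM in the Sharpin-cpdm cultures and between 827 and 1458 CPM in wild-type libraries, and 9 luminal epithelial markers passed the low-count filter. Of the 7 adipocyte markers, 2 were at 0 in every library and Fabp4 alone passed the filter. The highest level of Adipoq in any library was 0.201 CPM. In bulk RNA, fewer cells of a type and less RNA per cell cannot be told apart.

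Bmp2 was the only member that passed the threshold, and it was lower in Sharpin-cpdm cultures by close to 1 on the log2 scale. By the quasi-likelihood test of edgeR, with p adjusted by Benjamini-Hochberg over all 13442 genes, 1 of 10 members passed at an adjusted p below 0.05 when same-numbered libraries were compared with each other (the replicate number as a block). In that fit 2.51% of all tested genes passed, 0.394% higher and 2.11% lower. Genotype alone was the design set down, and in that fit, without the block, 0 of 10 members passed, as did 0% of tested genes. At an unadjusted p below 0.05 without the block there were 307 tested genes (2.28%), Bmp4 alone among the members. Below, rose and fell are kept for genes that passed with the block, and every log2 fold change is Sharpin-cpdm over wild type. The labels do not say what a replicate number marks; that the numbers pair the cultures was read from the data.

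**Figure D1:**
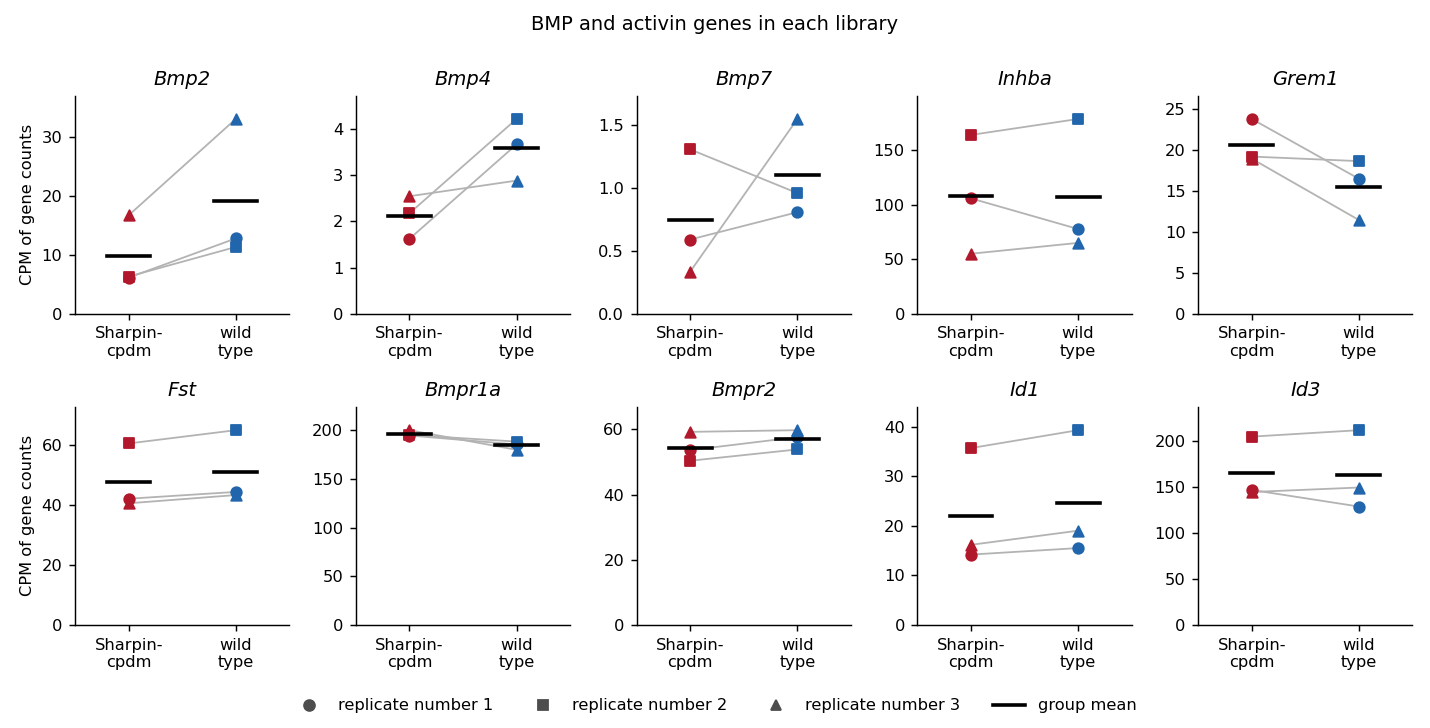
Level of each of the 10 genes (vertical axis, CPM of gene counts, starting at 0) in the 3 Sharpin-cpdm (red, left) and 3 wild-type (blue, right) libraries; symbols mark the replicate number, grey lines join libraries of the same number and black bars are group means. Bmp2 was lower in the Sharpin-cpdm library of every pair, and Inhba, Fst, Id1 and Id3 stood highest in both libraries numbered 2.

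The members spanned a wide range of levels. Per kilobase of annotated exon, which allows levels of different genes to be set in order, Id3 was highest at a mean of 91.9 CPM per kilobase over the 6 libraries. It was followed by Bmpr1a at 30.0, Id1 at 20.1, Inhba at 16.8 and Fst at 10.8 CPM per kilobase. Grem1, Bmp2 and Bmpr2 stood close together at 4.36, 4.04 and 3.10, Bmp4 at 1.27 and Bmp7 at 0.230 CPM per kilobase. The ranges over libraries overlapped between each neighbouring pair from Bmpr1a to Fst and from Grem1 to Bmpr2, so these neighbours did not differ beyond their spread. Genes farther apart could: Bmpr1a, at 28.3 to 31.5 CPM per kilobase, lay above Inhba at 8.60 to 27.9 and Fst at 8.85 to 14.2 with no overlap. Id3, Fst, Bmpr2 and Bmp4 each did not overlap the next gene in the order. The range of Bmp2 over libraries, 1.72 to 9.27 CPM per kilobase, still overlapped those of Inhba and Fst above it and of Bmp4, at 0.721 to 1.88, below it. Within each single library, however, Bmp2 lay below Inhba and Fst and above Bmp4 per kilobase. Among the 4 ligand genes Inhba had the highest level per kilobase in the mean over libraries.

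Bmp2 encodes a BMP ligand (ENSMUSG00000027358.6; mm10 chromosome 2, 133552159 to 133562885, plus strand). It had 6.12, 6.31 and 16.7 CPM in the Sharpin-cpdm libraries, against 12.8, 11.3 and 33.0 CPM in the wild-type ones. The groups overlap, because both libraries numbered 3 were high, but within each number the Sharpin-cpdm library was lower, with log2 ratios of -1.06, -0.84 and -0.98. Bmp2 averaged 9.70 ± 6.04 CPM in Sharpin-cpdm, against 19.0 ± 12.1 CPM in wild type (SD, n = 3 each). With the block, the log2 fold change was -0.98 ± 0.10 (SE), with a 95% interval from -1.22 to -0.74 (edgeR, adjusted p 0.0101). The fit without the block gave -0.99 ± 0.55 (adjusted p 1.00), so the call rests on the pairing. The call was also lost without the pair numbered 3, the one with the most Bmp2, though the value hardly changed, at -0.95 (edgeR, adjusted p 0.107). Without pair 1 or pair 2 the adjusted p was 0.00404 or 0.0330 in the same test. Over the whole table, too, fewer genes passed without pair 3 than without pair 1 or pair 2, as given in the closing section.

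Most endothelial markers fell, as Bmp2 did, and each of them was highest at number 2 or number 3. Their sum was 827, 1379 and 1458 CPM in wild-type libraries 1 to 3, where Bmp2 was highest at number 3 and lowest at number 2. In Sharpin-cpdm libraries 1 to 3 the sum was 632, 800 and 921 CPM, beside 6.12, 6.31 and 16.7 CPM of Bmp2. By the mean of same-numbered libraries, 9 endothelial markers were highest at number 2 and 10 at number 3. Of the 19, 15 fell and 0 rose with the block, at a list median of -0.78 (log2). Their summed level was lower in the Sharpin-cpdm library of each pair, with log2 ratios of -0.39, -0.79 and -0.66 in pairs 1 to 3, beside -1.06, -0.84 and -0.98 for Bmp2. Per 1000 CPM of summed endothelial markers, Bmp2 came to 9.67, 7.89 and 18.1 CPM in the Sharpin-cpdm cultures, against 15.4, 8.20 and 22.6 CPM in the wild-type ones. On this scale it was again lower within each pair, by log2 ratios of -0.67, -0.06 and -0.32, and in pair 2 the difference was close to 0. Of the 18 fibroblast markers, 4 fell and 0 rose with the block, at a list median of -0.17. Highest at number 3, by the mean of same-numbered libraries, were 10 of these 18, with 4 at number 1 and 4 at number 2. Dcn, Lum, Fap and Dpt fell, at log2 fold changes of -0.90, -0.71, -0.35 and -1.27. By the mean of same-numbered libraries, Dcn, Lum and Dpt were highest at number 3 and lowest at number 2. Bmp2 was also highest at number 3, but its levels at numbers 1 and 2 were nearly equal. They were 6.12 and 6.31 CPM in Sharpin-cpdm, against 12.8 and 11.3 CPM in wild type, so the lower of these numbers differed between genotypes. Fap was highest at number 1. The part of endothelial cells or of fibroblasts in the fall of Bmp2 was not tested.

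The 3 genes whose pattern over the 6 libraries was nearest to that of Bmp2 were Kit, the receptor of stem cell factor, Clca5 and Cldn5, a tight junction protein that is on the endothelial list. Nearness is the root mean square difference of log2 CPM after centring each gene on its own mean, and came to 0.12, 0.13 and 0.14, beside a standard deviation of 0.82 for Bmp2 itself. Kit measured 13.0, 13.6 and 29.3 CPM across Sharpin-cpdm libraries, against 23.3, 23.6 and 58.6 CPM in the wild-type ones. All 3 neighbours passed with the block, at log2 fold changes of -0.91 for Kit, -1.03 for Clca5 and -1.01 for Cldn5, and edgeR gave adjusted p = 0.00617, 0.0232 and 0.00617. They were chosen for being near Bmp2, so their fall is no separate finding.

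**Figure D2:**
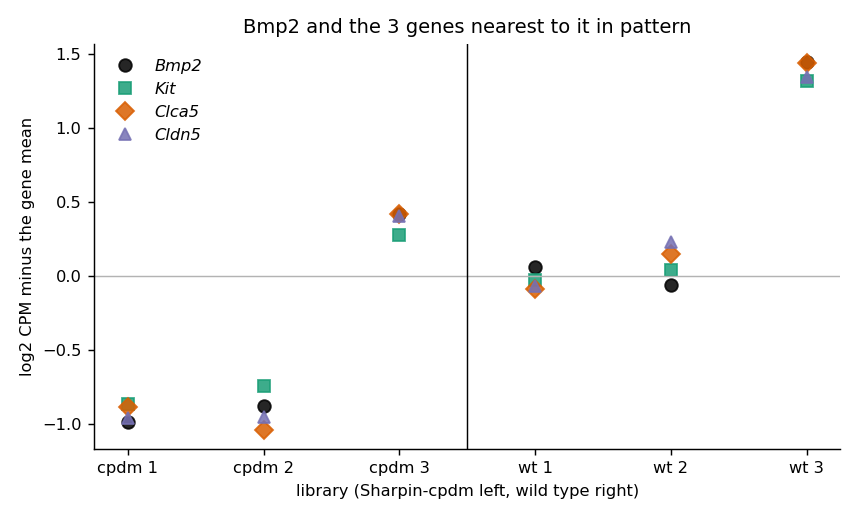
Level of Bmp2, Kit, Clca5 and Cldn5 relative to each gene's own mean (vertical axis, log2 CPM minus the mean over 6 libraries) in the Sharpin-cpdm (left) and wild-type (right) libraries. The 4 genes lie close together in every library, lowest in Sharpin-cpdm libraries 1 and 2 and highest in wild-type library 3, where Bmp2 reached 33.0 CPM.

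Bmp4, also a BMP ligand (ENSMUSG00000021835.15; chromosome 14, 46383520 to 46390669, minus strand), had few counts and did not pass. Its counts were 22, 30 and 38 in Sharpin-cpdm libraries 1 to 3, against 50, 66 and 41 in wild-type libraries 1 to 3. That is 1.62, 2.17 and 2.54 CPM in Sharpin-cpdm, against 3.67, 4.22 and 2.88 CPM in wild type. All 3 Sharpin-cpdm libraries were below all 3 wild-type ones, but libraries 3 of both genotypes lay close, and the 95% Poisson intervals of their counts, 26.9 to 52.2 in Sharpin-cpdm and 29.4 to 55.6 in wild type, overlap widely (these intervals cover counting error only). The log2 fold change with the block was -0.77 ± 0.24, with a 95% interval from -1.35 to -0.18 (edgeR, adjusted p 0.181). Nearest in pattern were Shank3, Ctnnal1 and Eln, which encodes elastin, at root mean square differences of 0.18, 0.20 and 0.21. Annotated genes on the opposite strand overlap Bmp4, and the library kit does not mark strand, so their reads cannot be told apart.

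Bmp7, another BMP ligand (ENSMUSG00000008999.7; chromosome 2, 172868012 to 172940321, minus strand), was at the edge of detection. It had 8, 18 and 5 counts in Sharpin-cpdm libraries 1 to 3, against 11, 15 and 22 counts in wild-type libraries 1 to 3. It reached the low-count filter in 1 Sharpin-cpdm and 3 wild-type libraries. The pairs went both ways, and the log2 fold change with the block was -0.60 ± 0.52, with a 95% interval from -1.86 to 0.65 (edgeR, adjusted p 0.609). In pair 3 the 95% Poisson intervals of the counts, 1.62 to 11.7 in Sharpin-cpdm and 13.8 to 33.3 in wild type, did not overlap. Pair 2 went the other way, at a log2 ratio of 0.45. With few counts and pairs that disagreed, no difference was detected. Nearest in pattern were Shc4, Apol9a and Card10, at root mean square differences of 0.30, 0.34 and 0.35, larger than for any other member.

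Inhba encodes the beta-A subunit, whose dimer is activin A (ENSMUSG00000041324.14; chromosome 13, 16011851 to 16031621, plus strand). It read 106, 164 and 55.0 CPM in the Sharpin-cpdm cultures, against 77.6, 178 and 64.9 CPM in the wild-type ones. The Sharpin-cpdm library was higher in pair 1 and lower in pairs 2 and 3, and the libraries numbered 2 were the highest of both genotypes. With the block, the log2 fold change was 0.02 ± 0.13, with a 95% interval from -0.29 to 0.33 (edgeR, adjusted p 0.961). Nearest to it in pattern were Crispld2, Tnc, which encodes the matrix protein tenascin C, and Fam176a, at root mean square differences of 0.09, 0.11 and 0.14. Annotated genes on the opposite strand overlap Inhba.

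Grem1, which encodes the BMP antagonist gremlin-1 (ENSMUSG00000074934.3; chromosome 2, 113746164 to 113758646, minus strand), was the member with the largest log2 fold change above 0. Its level was 23.8, 19.2 and 18.9 CPM in the Sharpin-cpdm cultures, against 16.5, 18.7 and 11.5 CPM in the wild-type ones. The Sharpin-cpdm library was the higher one in every pair, by a log2 ratio of 0.53, 0.04 and 0.73, and pair 2 was nearly equal. The log2 fold change with the block was 0.41 ± 0.13, with a 95% interval from 0.10 to 0.73 (edgeR, adjusted p 0.183), so it did not pass. Its nearest genes in pattern were Ak5, Tpx2, a spindle assembly factor, and Rad54l, a DNA repair gene, all at a root mean square difference of 0.07.

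The promoter windows of Grem1, Bmp4 and Id3 are shown because Bmp4 and Grem1 lay on opposite sides of wild type within every pair and Id3 is the BMP target with the highest level. RefSeq (GRCm38.p6) gave a window from 250 bases before to 50 bases after the start for 6 of the 10 members: Bmp4, Inhba, Grem1, Bmpr1a, Bmpr2 and Id3. For Bmpr1a, Bmpr2 and Id3 the whole window lies inside the gene span given here, because the RefSeq start is downstream of the annotated gene start. Positions below are counted from the RefSeq start. The windows of Bmp2, Bmp7, Fst and Id1 are not used here. Capitals mark GGCGCC, a GC-rich sequence to which BMP-activated SMADs are known to bind and which is its own reverse complement, and CAGAC or its reverse complement GTCTG, the SMAD box; no match of one overlaps a match of the other. Sequences run 5′ to 3′ on the strand of the gene.
Grem1 (chr2:113758599-113758898, minus strand): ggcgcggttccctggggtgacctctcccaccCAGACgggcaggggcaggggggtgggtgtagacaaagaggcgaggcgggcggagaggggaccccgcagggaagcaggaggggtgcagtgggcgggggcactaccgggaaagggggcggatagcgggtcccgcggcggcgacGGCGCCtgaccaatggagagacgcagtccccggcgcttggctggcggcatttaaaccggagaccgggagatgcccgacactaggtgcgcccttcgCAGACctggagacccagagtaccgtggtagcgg
Bmp4 (chr14:46390620-46390919, minus strand): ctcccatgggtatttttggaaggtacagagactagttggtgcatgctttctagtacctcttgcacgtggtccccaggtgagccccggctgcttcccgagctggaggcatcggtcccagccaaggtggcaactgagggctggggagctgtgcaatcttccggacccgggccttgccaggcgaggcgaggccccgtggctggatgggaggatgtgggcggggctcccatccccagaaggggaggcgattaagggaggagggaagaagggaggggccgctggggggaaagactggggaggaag
Id3 (chr4:136143572-136143871, plus strand): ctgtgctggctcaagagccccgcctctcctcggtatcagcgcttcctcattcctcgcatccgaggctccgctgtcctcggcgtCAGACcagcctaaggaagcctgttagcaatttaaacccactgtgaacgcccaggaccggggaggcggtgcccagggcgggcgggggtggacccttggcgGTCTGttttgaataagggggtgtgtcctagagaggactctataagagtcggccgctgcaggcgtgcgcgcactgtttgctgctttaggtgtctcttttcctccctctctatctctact

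The Grem1 window held 1 GGCGCC, starting at -78 from the transcript start, and 2 copies of CAGAC, starting at -219 and 18. The Id3 window held the SMAD box on the gene's strand at -167 and on the other strand at -68, and the Bmp4 window held neither sequence. Searched on both strands, GGCGCC was in 3 of the 6 members' windows (Grem1, Bmpr1a and Bmpr2) and in 11.9% of 32851 RefSeq promoter windows of the same length, while CAGAC was in 2 of the 6 (Grem1 and Id3) and in 49.6% of all windows. A match describes these letters and is not evidence of binding.

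Counts of Bmp4 per count of Grem1 were 0.0681, 0.113 and 0.134 in Sharpin-cpdm libraries 1 to 3, against 0.222, 0.226 and 0.252 in wild-type libraries 1 to 3. The groups did not overlap, which was fixed in advance. In CPM of gene counts, every Sharpin-cpdm library was below all wild-type ones for Bmp4 and above them for Grem1. Counts of Bmp2 per count of Grem1 were 0.257, 0.328 and 0.880 in Sharpin-cpdm, against 0.773, 0.606 and 2.88 in wild type, lower within each pair but overlapping between groups. For the activin arm, counts of Inhba per count of Fst were 2.51, 2.70 and 1.35 in Sharpin-cpdm, against 1.75, 2.74 and 1.50 in wild type, with no common direction. These ratios were picked with the values known and carry no test.

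Fst encodes follistatin, which binds activin (ENSMUSG00000021765.9; chromosome 13, 114452290 to 114458951, minus strand). It had 42.1, 60.6 and 40.6 CPM in the Sharpin-cpdm libraries, against 44.4, 65.0 and 43.4 CPM in the wild-type ones. The 3 pairs were alike, with log2 ratios of -0.08, -0.10 and -0.09, and both libraries numbered 2 were the high ones. The log2 fold change with the block was -0.10 ± 0.05, with a 95% interval from -0.22 to 0.02 (edgeR, adjusted p 0.355). Adarb1, an RNA-editing enzyme gene, Stom and Mafk were nearest to it, each at a root mean square difference of 0.04. An antisense gene overlaps Fst in the annotation.

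**Figure D3:**
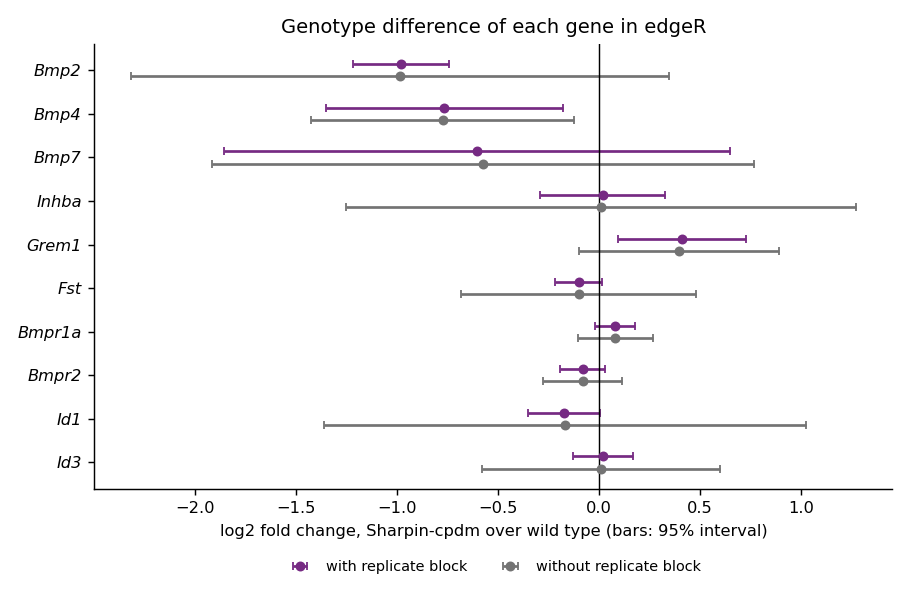
Log2 fold change of each gene (horizontal axis, Sharpin-cpdm over wild type, points) with its 95% interval (bars) in edgeR with the replicate block (purple) and without it (grey). The interval with the block lies below 0 for Bmp2 and Bmp4 and above 0 for Grem1, and after adjustment over 13442 genes Bmp2 alone passed.

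The receptor transcripts were the steadiest members. Bmpr1a, the type I receptor gene (ENSMUSG00000021796.15; chromosome 14, 34410734 to 34503341, minus strand), measured 195, 195 and 200.1 CPM across Sharpin-cpdm libraries, against 185, 188 and 179.9 CPM in the wild-type ones. The 3 Sharpin-cpdm libraries were above all wild-type ones by a small amount, though not with TMM scaling, and the log2 fold change with the block was 0.08 ± 0.04, with a 95% interval from -0.02 to 0.18 (edgeR, adjusted p 0.389). Bmpr2, the type II receptor gene (ENSMUSG00000067336.6; chromosome 1, 59763400 to 59879014, plus strand), read 53.6, 50.4 and 59.2 CPM in the Sharpin-cpdm cultures, against 57.6, 53.8 and 59.7 CPM in wild type. Its groups overlapped, and its log2 fold change was -0.08 ± 0.05, with a 95% interval from -0.19 to 0.03 (edgeR, adjusted p 0.436). An antisense gene overlaps Bmpr1a, and an unclassified transcript overlaps Bmpr2 on the same strand. Nearest in pattern were Gltpd1, Sltm and Rnf111 for Bmpr1a, at root mean square differences of 0.01, 0.02 and 0.02, and Sec23ip, Zfp451 and Ptdss1 for Bmpr2, at 0.01, 0.02 and 0.02.

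Id1 and Id3 encode inhibitors of DNA binding, proteins that hold basic helix-loop-helix factors in inactive pairs and whose genes are common readouts of BMP signalling. Id1 (ENSMUSG00000042745.9; chromosome 2, 152736251 to 152737410, plus strand) had 14.2, 35.7 and 16.2 CPM in the Sharpin-cpdm libraries, against 15.5, 39.3 and 19.0 CPM in the wild-type ones. It was lower in the Sharpin-cpdm library of each pair, by log2 ratios of -0.13, -0.14 and -0.23. Its level spanned 2.61-fold between the pairs, a spread that the block takes out of the comparison. The log2 fold change with the block was -0.18 ± 0.07, with a 95% interval from -0.35 to 0.0030 (edgeR, adjusted p 0.297). Id3 (ENSMUSG00000007872.3; chromosome 4, 136143497 to 136145755, plus strand) measured 147, 205 and 145 CPM across Sharpin-cpdm libraries, against 129, 212 and 150 CPM in wild type. It was higher in pair 1 and lower in pairs 2 and 3, and the log2 fold change was 0.02 ± 0.06, with a 95% interval from -0.13 to 0.17 (edgeR, adjusted p 0.913). Neither target passed. Nearest to Id1 in pattern were Col4a1, a basement membrane collagen gene, Timp1, an inhibitor of metalloproteinases, and Abcb1a, at root mean square differences of 0.11, 0.11 and 0.17, and near to Id3 were Creld2 and Micall2 at 0.04 and 0.06.

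Over all 10 members the median log2 fold change with the block was -0.09, against -0.0016 over all tested genes, with 4 members above 0 and 6 below. With levels as CPM of gene counts, the groups did not overlap for 3 of 10 members, Grem1 and Bmpr1a higher and Bmp4 lower, against 5.94% of all tested genes (3.35% higher, 2.59% lower). With TMM scaling (edgeR's scaling factors) Bmp4 alone remained free of overlap, 1 of 10 against 5.91%, since Grem1 and Bmpr1a in wild-type library 2 then reached the Sharpin-cpdm range. The 3 pairs agreed in direction for 7 of 10 members, 2 higher and 5 lower, against 41.2% of all tested genes, 22.7% higher and 18.5% lower. As the genes were chosen with results of these libraries known, these counts describe them and are no test.

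Several members differed more between replicate numbers than between genotypes. The mean of the same-numbered libraries spanned 2.97-fold for Inhba, 2.64-fold for Bmp2 and 2.61-fold for Id1, against a median of 1.27-fold over all tested genes. It spanned 1.58-fold for Id3, 1.57-fold for Bmp7, 1.55-fold for Fst, 1.34-fold for Grem1, 1.27-fold for Bmp4, 1.10-fold for Bmpr2 and 1.05-fold for Bmpr1a. Inhba, Fst, Id1 and Id3 were all highest in the libraries numbered 2 of both genotypes, whereas Bmp2 was highest in those numbered 3. Fst and Id3 were the most alike pair of members, with a root mean square difference of 0.10, and Bmp2 and Inhba the least alike, at 1.34.

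**Figure D4:**
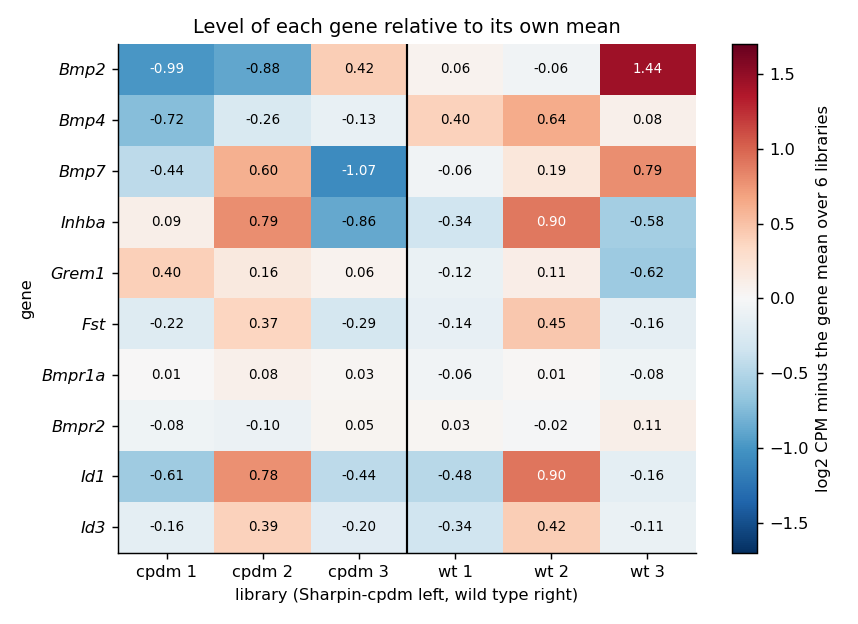
Log2 CPM of each gene minus its own mean over the 6 libraries (colour and number in each cell), with Sharpin-cpdm libraries left of the line and wild-type libraries right of it. Columns cpdm 2 and wt 2 share high values of Inhba, Fst, Id1 and Id3, and the highest value of Bmp2 is in wt 3.

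Pericyte and smooth muscle markers summed to 4078, 6911 and 2922 CPM in the Sharpin-cpdm cultures, against 3588, 6323 and 2352 CPM in the wild-type ones. The sum was highest at number 2 and was higher in the Sharpin-cpdm library of each pair, but Acta2, smooth muscle actin, made up between 60.7% and 82.3% of it. By the mean of same-numbered libraries, 5 of the 10 markers were highest at number 2, 4 at number 3 and 1 at number 1. With the block 3 of the 10 fell and 1 rose, and 7 had a log2 fold change below 0. Macrophage and leukocyte markers summed to 131, 332 and 226 CPM in Sharpin-cpdm, against 67.4, 388 and 175 CPM in wild type, again highest at number 2, as were, by that mean, 7 of the 7 tested markers, although Lyz2 made up at least 67.6% of the sum. Their part in the levels of Inhba, Fst, Id1 and Id3 was not tested.

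Beyond the 10 members, 84 further genes of the pathway were in the tables, 60 of them were tested, and 0 rose and 2 fell with the block, the receptor gene Tgfbr3 and the target gene Hey1, where 2.11% of all tested genes fell. Of these 60, 22 had a log2 fold change above 0 and 38 below, with a median of -0.10. The lists were drawn up with earlier results of these data known. Of 24 other BMP, GDF and activin ligand genes, 15 reached 1 CPM in no library and 9 were tested, with 0 rising or falling. Inhbb, the activin beta-B subunit, read 61.6, 70.6 and 81.9 CPM in the Sharpin-cpdm cultures, against 64.5, 97.6 and 125 CPM in the wild-type ones. It was lower in each pair, with a log2 fold change of -0.40 ± 0.10 (edgeR with block, adjusted p 0.123), and per kilobase its mean of 19.6 CPM was close to the 16.8 CPM of Inhba. Gdf10, a BMP-related factor that had the highest level per kilobase of the list, ranged from 20.8 to 220.1 CPM over the Sharpin-cpdm libraries and from 35.6 to 209 CPM over the wild-type ones, with a log2 fold change of -0.40 ± 0.14 (edgeR, adjusted p 0.236).

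Among 17 tested extracellular antagonists and modulators 0 rose or fell. Tll1, a protease that cleaves the BMP antagonist chordin, measured 16.5, 28.7 and 14.7 CPM across Sharpin-cpdm libraries, against 10.2, 24.5 and 7.59 CPM in wild type. It was higher in each pair, with a log2 fold change of 0.57 ± 0.14 (edgeR, adjusted p 0.107). Fstl1, a follistatin-like secreted protein gene with the highest level of the list at 703 CPM per kilobase, had a log2 fold change of 0.0083 ± 0.044 (edgeR with block, adjusted p 0.948), with a 95% interval from -0.10 to 0.11.

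Of 12 tested other receptors and co-receptors, Tgfbr3 fell and 0 rose. Tgfbr3 encodes betaglycan, a co-receptor that presents TGF-beta and inhibin. It read 157, 62.6 and 266 CPM in the Sharpin-cpdm cultures, against 236, 96.3 and 407 CPM in the wild-type ones. The groups overlapped but the pairs gave log2 ratios of -0.58, -0.62 and -0.61, and the log2 fold change was -0.62 ± 0.04 (edgeR, adjusted p 0.00598 with the block and 1.00 without it). Eng, endoglin, a co-receptor that is also on the endothelial list, had the highest level per kilobase of these receptors at 38.2 CPM and a log2 fold change of -0.11 ± 0.06 (edgeR with block, adjusted p 0.447).

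Of 15 SMAD genes and SMAD regulators 0 rose or fell, and the median log2 fold change was 0.05. Smurf1, a ubiquitin ligase for SMADs, and Smad2, which transmits activin signals, had log2 fold changes of 0.14 ± 0.04 and 0.14 ± 0.05 (edgeR with block, adjusted p 0.160 and 0.223). Pmepa1, a target that dampens SMAD signalling and had the highest level of this list at 91.9 CPM per kilobase, had -0.11 ± 0.05 (edgeR, adjusted p 0.350).

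Of 11 tested other BMP-responsive target genes, 4 of which are also counted among the receptors or SMAD genes, Hey1 fell and 0 rose. Hey1, a transcriptional repressor that answers to Notch as well as BMP signals, had 9.73, 16.7 and 12.9 CPM in the Sharpin-cpdm libraries, against 12.8, 26.0 and 18.1 CPM in the wild-type ones. It was lower within each pair, at log2 ratios of -0.39, -0.63 and -0.48, with a log2 fold change of -0.52 ± 0.09 (edgeR, adjusted p 0.0435 with the block and 1.00 without it). The call was lost without pair 2 (adjusted p 0.235), without pair 3 (0.200) and in DESeq2 with the block (0.139). Id2, another ID gene and the one of this list with the highest level at 14.7 CPM per kilobase, had a log2 fold change of -0.21 ± 0.12 (edgeR with block, adjusted p 0.432). As with Bmp2, 15 of 19 endothelial markers fell in the same libraries as Tgfbr3 and Hey1, with a median of -0.78. So did 4 of 18 fibroblast markers, with a list median of -0.17. By the mean of same-numbered libraries, Tgfbr3 was highest at number 3 and lowest at number 2, like Dcn, Lum and Dpt. Hey1 was highest at number 2 and lowest at number 1. The part of either cell type was not tested.

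**Figure D5:**
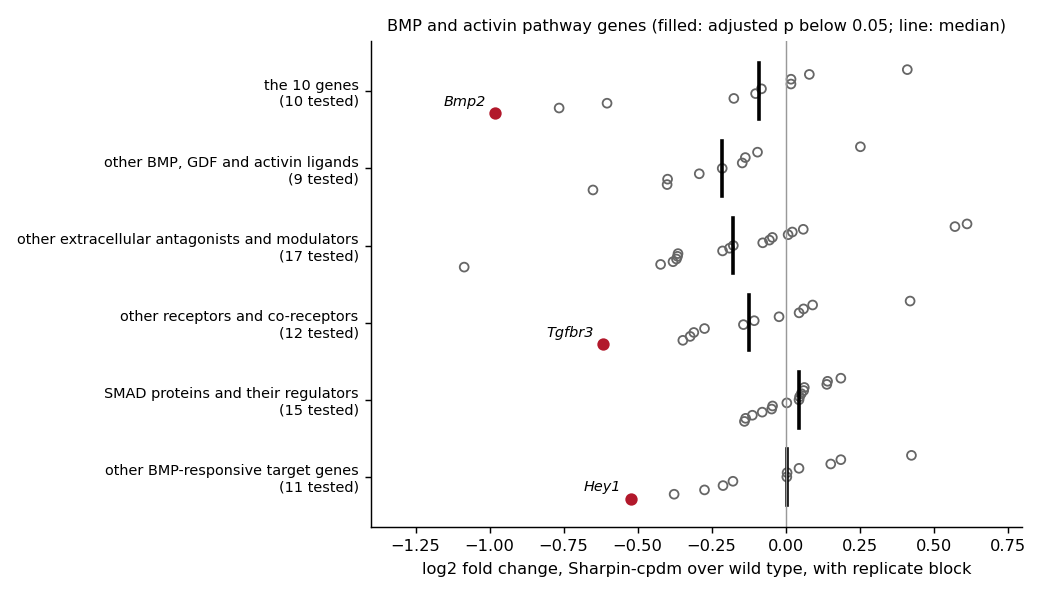
Log2 fold change with the replicate block (horizontal axis, Sharpin-cpdm over wild type) of each tested gene, by list; filled points passed at an adjusted p below 0.05 and black lines are medians. Bmp2, Tgfbr3 and Hey1 are the filled points.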

How the data were processed

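The authors deposited a count table for each of 6 libraries, holding whole reads by gene symbol. The submitters' processing notes name bcl2fastq (1.8.4), TopHat2 (2.0.10), HTSeq (0.5.4p3) and mm10; annotation, strand and overlap settings are not given in the sources used here. Libraries were made with TruSeq RNA v2, per the labels' protocols, a kit that does not mark strand. Summary rows of the counting program, 48.8% to 51.2% of entries, stayed out of all totals.

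Counts were tested in R 4.3.3 with edgeR 4.0.16 (filterByExpr by group, TMM factors 0.969 to 1.03, quasi-likelihood F-test, two-sided, Benjamini-Hochberg over all tested genes, threshold 0.05). SE is the log2 fold change over the root of F. Genotype alone was the design set down; the replicate number as a block was the alternative. Deviations from group means correlated at 0.457, 0.809 and 0.737 between same-numbered libraries and from -0.691 to 0.0068 otherwise. A gene's deviations sum to 0 in each group, so correlations above 0 at the same number push the others down. The range of the others is therefore no separate evidence of pairing. The cultures were treated as paired by number on the same-numbered correlations, which is the data and not the labels. DESeq2 1.42.0, limma 3.58.1, other scalings, no filter and left-out libraries were alternatives. Libraries of a group differed beyond sampling noise (chi-square per degree of freedom of at least 16.9). Exon lengths and positions are GENCODE's for mm10.

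Members and lists were chosen with earlier results of these data known. Named were the 10 members; from each pathway list the called genes, or else the 2 with the smallest p with the block, and the gene with the highest level per kilobase; and the 3 genes nearest to each member with a mean of at least 5 CPM (log2 CPM, prior count 2). Of the genes this rule names, 2 are not reported here.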

Additional observations from a re-analysis of the deposited data

How the results depend on the processing

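Without the replicate block, edgeR called 0 genes (307 at an unadjusted p below 0.05), limma-voom 0 (272) and DESeq2 10, none of them a member. With the replicate block, edgeR called 337 genes and 1 member, Bmp2; the counts were 341 and 1 with DESeq2, 379 and 1 with limma-voom, 336 and 1 with DESeq2's size factors in edgeR, 365 and 1 with gene totals only, and 502 and 1 without the low-count filter. Leaving out 1 library or 1 pair gave between 0 and 653 genes and between 0 and 1 member; with the block it was 653 without pair 1, 128 without pair 2 and 44 without pair 3. The block changed no other member's call.

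Of 460 recomputed fold changes of the 23 genes, 23 changed sign, all of them with a library or pair left out. Over those fits the log2 fold change ran from -1.36 to 0.09 for Bmp7, from -0.46 to 0.62 for Inhba, from -0.34 to 0.13 for Fst, from -0.74 to 0.37 for Id1, from -0.21 to 0.26 for Id3, from -1.29 to 0.43 for Gdf10, from -0.092 to 0.11 for Fstl1, from -0.22 to 0.014 for Eng and from -0.046 to 0.32 for Smurf1; the cause was not tested. With the block, the values that changed sign were -0.19 for Inhba, -0.062 for Id3 and -0.0047 for Fstl1 without pair 1, and 0.093 for Bmp7 without pair 3. Bmp2 stayed between -1.60 and -0.33. TMM-scaled levels moved each member's group mean by less than 1 SD. Depth limits Bmp7 and Bmp4, with at most 22 and 66 counts in a library.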
